A study of Mus musculus with 35 samples.

Results

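The enzymes described here remove reactive oxygen species or couple electrophiles to glutathione, and their transcripts were measured in mouse perigonadal fat. They are the 9 genes Sod1, Sod2, Sod3, Cat, Gpx1, Gpx3, Gsta3, Gsta4 and Gstz1, taken by name from the array's annotation, of 8251 genes with a single symbol on the array. All 9 were measured, by 10 of the 12422 probe sets that are no controls: Cat had 2 probe sets and each other gene had 1. No member was lost to a filter on low signal.

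Total RNA of perigonadal adipose tissue was hybridised to Affymetrix MG-U74Av2 arrays, 1 array a sample and 35 arrays in all, from C57BL/6J mice aged 22 weeks. Pioglitazone activates the nuclear receptor PPAR gamma, and the daily dose was 10 mg/kg over 2 weeks; the groups that received it were Ay/+ females (3 arrays, with no dose in the label of replicate 3), ob/ob females (3 arrays) and diet-induced obese males (4 arrays). CL316243 activates the beta3 adrenergic receptor, and 2 arrays were of ob/ob females that received 3 mg/kg daily over 2 weeks. The untreated obese groups were Ay/+ females, heterozygous for the agouti yellow allele (4 arrays), ob/ob females (4 arrays) and ob/ob males (4 arrays), which lack functional leptin, and wild-type males made obese on diet D12451 (3 arrays); the pioglitazone-treated obese males were on that diet as well. The lean references were untreated wild-type females (4 arrays) and males (4 arrays). The labels do not say whether a sample was 1 animal or a pool, or for how long the diet was fed, so the p-values measure the spread between these samples, whatever its source.

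Superoxide dismutases turn superoxide into hydrogen peroxide: the Sod1 enzyme in the cytosol, the Sod2 enzyme in mitochondria and the Sod3 enzyme outside the cell. Catalase, the product of Cat, breaks down hydrogen peroxide in peroxisomes. Gpx1, a cytosolic and mitochondrial selenoenzyme, and Gpx3, a secreted selenoenzyme of plasma, reduce peroxides with glutathione. Gsta3 and Gsta4 encode alpha-class glutathione transferases, the enzyme from Gsta4 being known for conjugating the lipid peroxidation product 4-hydroxynonenal, and Gstz1 encodes the maleylacetoacetate isomerase of tyrosine breakdown. Fat tissue is a mixture of adipocytes, macrophages, vessels and other cells, so that a lower level in whole tissue may be fewer cells of a type or less RNA per cell, which cannot be told apart here.

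Every value below is an MAS5 signal scaled so that each array has a 2% trimmed mean of 250, called a scaled signal, or a difference of log2(scaled signal + 23) between groups. Probe sets differ in their brightness per transcript, so no gene's level was set against another gene's. The tests are those of limma on 10 group means over all 35 arrays, with Benjamini-Hochberg adjustment over 12422 probe sets, and "called" means an adjusted p under 0.05. Of the arrays, 22 were earlier and 13 later by the form of their experiment files, and they were scanned on 13 days. All ob/ob males were on later arrays and all drug-treated females on earlier ones, and several comparisons shared no scan day. Earlier arrays of untreated females were scanned on day 3 for lean, day 2 for ob/ob and days 4 and 5 for Ay/+ mice. The ob/ob males were scanned on days 12 and 13 and the lean males on days 8 to 11. Between these groups, over earlier arrays in females and over all arrays in males, genotype and scan day cannot be told apart. Lean males and lean females shared only day 11, with 1 array of each sex. Over earlier arrays of lean mice, sex and scan day cannot be told apart. 4 arrays stood apart: replicate 1 of the Ay/+ females and replicate 4 of the ob/ob females correlated least with their groups, the array with no dose had a high dim end, and pioglitazone-treated diet-induced obese male replicate 1 had a Gapdh 3' to 5' ratio of 46.9, against 0.708 to 2.51 on the other 34 arrays. Without these 4 arrays all 33 calls of members over 15 comparisons were kept and 13 more were made, given below where they bear on a result. Leaving out arrays that differ from their groups narrows the spread, so this setting is no independent check. The Ay/+ and ob/ob female arrays among the 4 were also the only ones of their groups scanned on the same day as a lean female array. With the scan day as a random block 10 of the 33 calls were lost, and 14 when a fit held only the groups compared. The adipocyte hormone gene Adipoq was high on every array, from 4843 to 21784. The summed signal of 17 measured macrophage markers ran from 25232 to 33298 in ob/ob females and from 9342 to 17644 in Ay/+ females, against 4135 to 8227 in lean females. In males it ran from 35155 to 49794 in ob/ob and from 28375 to 33385 in diet-induced obese mice, against 8627 to 10883 in lean mice. Of those 17 markers, 1 had a group mean under the pseudocount in ob/ob males and 1 in lean females.

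**Figure D1:**
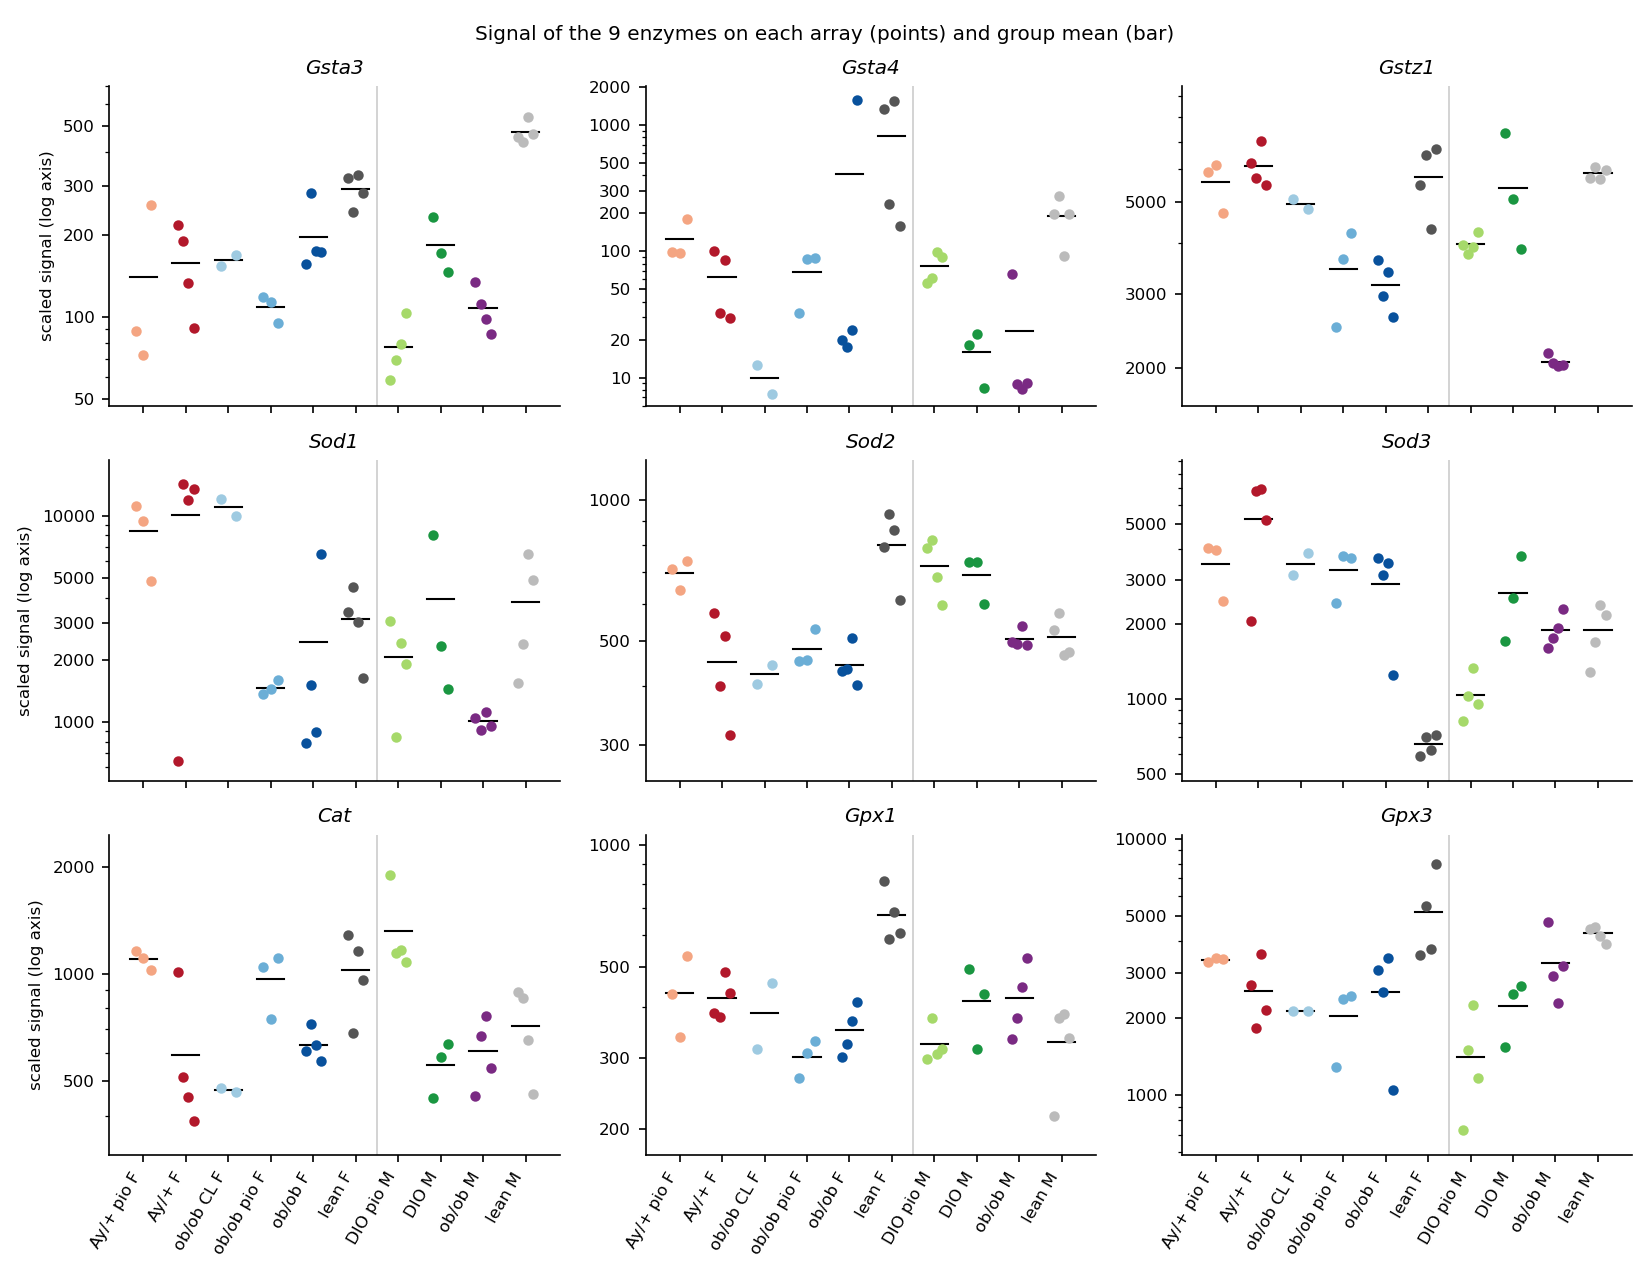
Scaled signal of each of the 9 enzymes on a log axis, 1 panel a gene, with a point for each of 35 arrays and a bar at each group mean; female groups are left of the grey line and male groups right of it (pio, pioglitazone; CL, CL316243; DIO, diet-induced obese). The 4 lean female arrays are the lowest of all groups for Sod3, at 586 to 717, and the highest for Gpx1, at 587 to 815; Sod1 and Gsta4 scatter widely within groups.

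Over all arrays, Sod2, Gpx1, Gpx3 and Gsta4 were called lower and Sod3 higher in both obese female groups than in lean females. On earlier arrays genotype and scan day cannot be told apart between these groups. Over later arrays, 1 a group and all on 1 scan day, Gsta4 had the opposite sign in ob/ob females, at 3.13. The other signs of these genes were kept there, with Sod2 in Ay/+ females at -0.09. In Ay/+ females 1 of 9 enzymes rose, Sod3, and 6 fell, namely Sod2, Cat, Gpx1, Gpx3, Gsta3 and Gsta4, where 6.26% of all probe sets were called higher and 11.5% lower. Of the 9, 1 rose in ob/ob females, again Sod3, and 5 fell, namely Sod2, Gpx1, Gpx3, Gsta4 and Gstz1, where 10.3% of all probe sets were called higher and 14% lower. Both comparisons used the same 4 lean arrays, so the agreement between them is not independent. The median log2 difference of the 9 enzymes was -0.82 in Ay/+ females, beside -0.06 over all probe sets, and -0.84 in ob/ob females, beside -0.18. Between the obese genotypes, 2 of 9 were lower in ob/ob than in Ay/+ females, Gstz1 and Sod1, and 0 were higher, where 9.93% of probe sets were called lower and 11.7% higher.

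In ob/ob males 3 of 9 fell, Gsta3, Gsta4 and Gstz1, and 0 rose, where 4.96% of probe sets were called lower and 5.62% higher. In diet-induced obese males 1 of 9 fell, Gsta3, and 0 rose, where 0.628% were called lower and 1.22% higher. Gstz1 was the 1 enzyme called lower in ob/ob than in diet-induced obese males, and 0 were higher, where 0.62% of probe sets were called lower and 0.258% higher. 3 of the 9 differed between lean mice of the 2 sexes: Sod3 was higher in males, and Sod2 and Gpx1 were lower, where 5.22% of probe sets were called higher and 10.5% lower. In the test of the difference itself, the ob/ob effect was more positive in males than in females for 2 of 9 enzymes, Sod2 and Gpx1, and more negative for 2, Gsta3 and Sod3, where 2.84% of probe sets were called in each direction.

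Each comparison of a drug called at most 2 of the 9 enzymes. With pioglitazone, Cat and Sod2 rose in Ay/+ females and 0 of 9 fell, where 2.13% of probe sets were called higher and 0.91% lower. In diet-induced obese males Cat rose and Sod3 fell, where 0.757% were called higher and 0.66% lower, and 4 of the 9 had an unadjusted limma p under 0.05. Under pioglitazone 0 of 9 were called by limma in ob/ob females, where 0.733% of probe sets were called higher and 0.33% lower, and 2 of the 9 had an unadjusted p under 0.05. Under CL316243 0 of 9 were called in ob/ob females, where 1.55% were called higher and 2.18% lower, and again 2 of the 9 had an unadjusted p under 0.05. Between the drugs in ob/ob females, Sod1 was higher and Cat lower with CL316243 than with pioglitazone, where 2.91% of probe sets were called higher and 4.69% lower. The pioglitazone effect differed between models for none of the 9: for ob/ob minus Ay/+ females 0.0161% of probe sets were called higher and 0.00805% lower, with an unadjusted p under 0.05 for 1 of 9, and for diet-induced obese males minus Ay/+ females 0% were called in either direction, with an unadjusted p under 0.05 for 2 of 9.

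**Figure D2:**
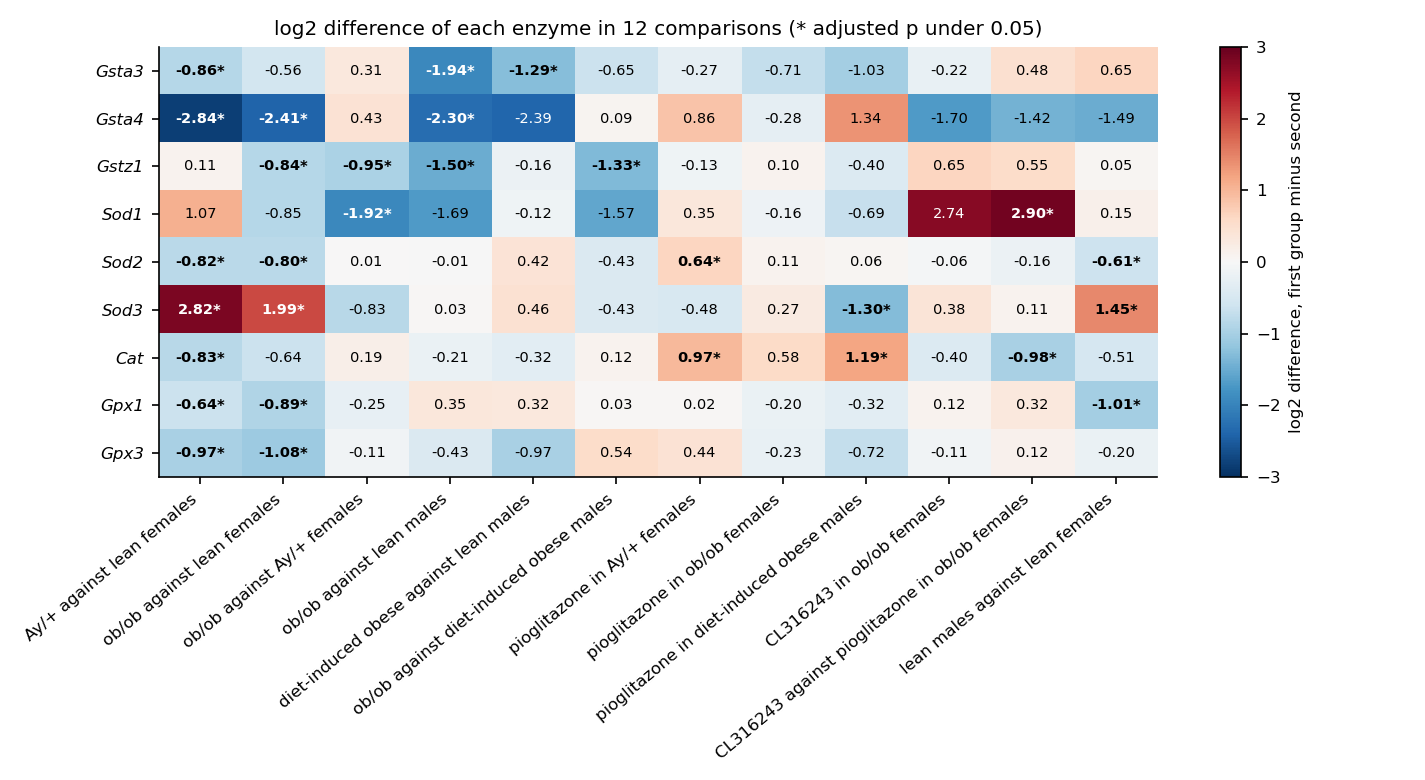
Log2 difference of each enzyme in 12 comparisons, the first-named group minus the second or treated minus untreated, in colour and as a number; a star marks an adjusted p under 0.05. Sod3 has the 2 largest called rises against lean females, 2.82 in Ay/+ and 1.99 in ob/ob females, and the 3 called falls of ob/ob males against lean males are in the rows of Gsta3, Gsta4 and Gstz1.

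Sod3, the extracellular dismutase, was the 1 enzyme of the 9 called higher than in lean females on all arrays. Its scaled signals were 2057, 6802, 6945 and 5209.5 in Ay/+ females, against 586, 701, 621 and 717 in lean females. No Ay/+ array reached down to a lean one, and the log2 difference was 2.82 ± 0.32 (SE, limma adjusted p = 1.59e-07). The ob/ob females had 3650.0, 3129, 3515 and 1239, all above the 4 lean arrays as well, and the difference was 1.99 ± 0.32 (limma adjusted p = 2.22e-05). Replicate 1 of Ay/+ and replicate 4 of ob/ob females, the lowest of their groups, were later arrays scanned on the same day as lean replicate 4, and on that day the signals were 2057, 1239 and 717. Over earlier arrays, on which neither obese group shared a scan day with lean females, the difference was 3.26 in Ay/+ females (limma adjusted p = 7.2e-10) and 2.39 in ob/ob females (adjusted p = 2.4e-08). Over later arrays, 1 a group, it was 1.49 (adjusted p = 0.048) and 0.77 (adjusted p = 0.20), with the spread taken from the other groups. Between the obese genotypes Sod3 was lower in ob/ob than in Ay/+ females by a difference of -0.83 that was not called (limma adjusted p = 0.056), and by -0.87 (adjusted p = 0.0037) without the 4 arrays that stood apart.

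In males Sod3 was not called against lean mice. The signals were 1592, 1752, 1912 and 2285 in ob/ob males and 1708, 2529 and 3724 in diet-induced obese males, against 1282, 1683, 2372 and 2170.3 in lean males. These ranges overlap, with log2 differences of 0.03 (limma adjusted p = 0.98) in ob/ob and 0.46 (adjusted p = 0.72) in diet-induced obese males. The ob/ob effect was 1.95 lower in males than in females on the log2 scale, or -1.95 ± 0.45 (limma adjusted p = 0.0076), and -0.43 (adjusted p = 0.59) over later arrays alone. Among lean mice Sod3 was higher in males, by 1.45 ± 0.32 (limma adjusted p = 0.0028), and the lean groups did not overlap. The sex difference was 1.80 over earlier arrays (limma adjusted p = 3.9e-05), on which lean males and females shared no scan day. Over later arrays, with 1 lean female array, it was 1.01.

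Sod3 fell with pioglitazone in diet-induced obese males. In treated diet-induced obese males the signals were 811, 1025, 1331 and 951, against 1708, 2529 and 3724 in untreated ones, and the groups did not overlap. The log2 difference was -1.30 ± 0.34 (limma adjusted p = 0.043), and -1.07 (adjusted p = 0.092) with the batch as a block and -1.11 (adjusted p = 0.088) with the scan day as a random block. It was -0.63 over earlier arrays (limma adjusted p = 0.68) and -1.98 over later ones (adjusted p = 0.011). The call was lost without untreated replicate 2 or 3 or treated replicate 1, 2 or 4, with an adjusted p of up to 0.28. In treated Ay/+ females Sod3 had 4016, 3949.8 and 2469, within the untreated range of 2057 to 6945, and the difference was -0.48 (limma adjusted p = 0.57). The untreated array at 2057 was the later one, and against the 3 earlier ones, at 5209.5 to 6945, all treated arrays were lower, by -0.88 over earlier arrays (limma adjusted p = 0.0092). The lowest treated array, at 2469, was the one with no dose in its label. Without the 4 arrays that stood apart the difference was -0.65 and was not called (limma adjusted p = 0.12). Sod3 in ob/ob females was 3122 and 3823 with CL316243 and 2414, 3736 and 3666 with pioglitazone, with differences from untreated of 0.38 and 0.27 (limma adjusted p = 0.68 and 0.999).

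Sod2, the mitochondrial dismutase, was lower in both obese female models. Its scaled signals were 573, 400.1, 512 and 315 in Ay/+ females and 430.4, 436, 508 and 402 in ob/ob females, against 792, 933, 862 and 612 in lean females. Neither obese group overlapped the lean one, and the log2 differences were -0.82 ± 0.16 (limma adjusted p = 0.00072) and -0.80 ± 0.16 (adjusted p = 0.00053). Over earlier arrays they were -1.06 (limma adjusted p = 3.8e-05) and -0.88 (adjusted p = 0.00026), and over later arrays, 1 a group, -0.09 (adjusted p = 0.92) and -0.58 (adjusted p = 0.26). Lean males, at 527, 572, 466 and 474, lay below every lean female, by -0.61 ± 0.16 (limma adjusted p = 0.012), and by -0.15 (adjusted p = 0.77) over later arrays.

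In obese males Sod2 was not called against lean males. ob/ob males had 496, 491, 539 and 489.8, in the range of lean males, with a log2 difference of -0.01 (limma adjusted p = 0.99). The ob/ob effect was thus 0.79 ± 0.23 more positive in males (limma adjusted p = 0.036), a call lost over later arrays alone, at 0.46 (adjusted p = 0.48), with the scan day as a random block, at 0.78 (adjusted p = 0.11), and without any 1 of 11 of the 16 arrays, at up to 0.077. Diet-induced obese males had 738, 738 and 598, all above lean males, with a difference of 0.42 (limma adjusted p = 0.34).

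Sod2 rose with pioglitazone in Ay/+ females. Treated females had 711, 642 and 740.3, all above the untreated range of 315 to 573, with a log2 difference of 0.64 ± 0.18 (limma adjusted p = 0.038). All treated arrays were earlier ones, and over earlier arrays the difference was 0.76 (limma adjusted p = 0.0036). With the scan day as a random block it was 0.59 and not called (limma adjusted p = 0.064). The call was lost without Ay/+ female replicate 2 (limma adjusted p = 0.10) or 4 (adjusted p = 0.16), and without treated replicate 1 (0.092), 2 (0.064) or 3 (0.13). With the drugs in ob/ob females Sod2 had 404 and 445 with CL316243 and 454, 455 and 529.7 with pioglitazone, within or beside the untreated range, and in treated diet-induced obese males it had 788, 822, 683 and 597. None of these was called, with log2 differences of -0.06, 0.11 and 0.06 (limma adjusted p = 0.93, 0.999 and 0.96).

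Of the 6 markers of brown or beige fat, 4 were called lower in each obese female group, where Sod2 was lower, and 4 higher with pioglitazone in Ay/+ females, where Sod2 rose. They were also higher in treated ob/ob females and in treated diet-induced obese males, where Sod2 was not called. Of all probe sets 11.5% were called lower in Ay/+ and 14% in ob/ob females. The summed signal of the 6 markers ran from 674 to 1715 in Ay/+ and from 303 to 396 in ob/ob females, against 3130.1 to 7347 in lean females. With pioglitazone it ran from 3403 to 10410 in Ay/+ females, from 2428 to 4134 in ob/ob females and from 2219 to 4579 in diet-induced obese males, against 674 to 1715, 303 to 396 and 643 to 796 without the drug. With CL316243 it ran from 1244 to 1553 in ob/ob females. 4 of the 6 were called higher with pioglitazone in each of the 3 models and 2 with CL316243. Of the 6, 0 had a mean under the pseudocount in treated Ay/+ females, 2 in untreated Ay/+ females, 4 in ob/ob females and 2 in lean females. Ucp1, the defining uncoupling protein of brown fat, averaged 2008 in treated and 86.4 in untreated Ay/+ females, and 855 in lean females. Between lean males and lean females, 4 of these 6 and 6 of 9 skeletal muscle markers were lower in males, where 10.5% of all probe sets were called lower. The brown or beige sums were 523 to 1016 in lean males against 3130.1 to 7347 in lean females. The muscle sums were 997 to 1203 against 2281 to 6352. Of the muscle markers 3 of 9 had a mean under the pseudocount in lean males and 0 in lean females. The part of such cells in the Sod2, Cat and Gpx1 results was not tested.

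Sod1, the cytosolic copper and zinc dismutase, varied widely within groups and between scan days. Its scaled signals were 785, 1511, 889 and 6529 in ob/ob females, 646, 14239, 11908 and 13398 in Ay/+ females and 3413, 4489.6, 3036 and 1619 in lean females. The array at 646 was the 1 Ay/+ array of the later batch, and the array at 6529 was the 1 ob/ob female array of that batch. Both lay on the side opposite to their own groups. The log2 difference of ob/ob from Ay/+ females was -1.92 ± 0.67 (limma adjusted p = 0.039), with overlapping groups. It was -3.66 over earlier arrays (limma adjusted p = 1.0e-07) and 3.29, of the opposite sign, over later arrays (adjusted p = 0.029). With the scan day as a random block it was -1.30 (limma adjusted p = 0.24), and with quantile normalization -1.52 (adjusted p = 0.076). The call was kept when Ay/+ replicate 1 or ob/ob replicate 4 was left out and lost without any other of the 8 arrays, at up to 0.15. Without the 4 arrays that stood apart, all 5 of the differences of Ay/+ from lean females (2.15), of ob/ob from lean females (-1.51), of ob/ob from lean males (-1.69), of ob/ob from diet-induced obese males (-1.57) and of CL316243 in ob/ob females (3.40) passed the limma threshold, and none of these 5 did on all arrays. The arrays left out include those at 646 and 6529, so the narrower spread follows in part from that choice.

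With CL316243 the Sod1 signals of ob/ob females were 12073 and 9981, against 1353, 1434 and 1582 with pioglitazone, with a log2 difference of 2.90 ± 0.87 (limma adjusted p = 0.035). The 2 CL316243 arrays were scanned on day 7 and the 3 pioglitazone arrays on day 1, so drug and scan day cannot be told apart. With the scan day as a random block the limma adjusted p was 0.11, and with quantile normalization 0.063. The call was lost without any 1 of these 5 arrays, with an adjusted p of 0.072 to 0.22. Against the untreated arrays, at 785 to 6529, the CL316243 difference was 2.74 ± 0.83 (limma adjusted p = 0.055). In males the signals were 8044, 2339 and 1439.8 in diet-induced obese mice and 1041, 906, 1112 and 953 in ob/ob mice, against 1537, 2367, 6507 and 4878 in lean mice. The ob/ob males lay below the other groups, with a log2 difference from lean of -1.69 ± 0.67 that was not called (limma adjusted p = 0.12). With pioglitazone Sod1 had 11079, 9436 and 4803 in Ay/+ females and 3069.8, 844, 2417 and 1910.3 in diet-induced obese males, with differences from untreated mice of 0.35 and -0.69 (limma adjusted p = 0.89 and 0.84).

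The arrays of scan days 4 to 8, lean male replicate 3 and ob/ob female replicate 4 held the highest Sod1 signals, from 4803 up, and every other array was at 4489.6 or below. The zinc transporter gene Slc39a1, among the 3 genes whose signal followed Sod1 most closely, ran with it over the 35 arrays (Pearson r of log2 signal 0.93, and 0.94 after group means were removed; these arrays share scan days). Slc39a1 was at 11601 and 8962 on the CL316243 arrays, 5330.0, 5126 and 5537 on Ay/+ replicates 2 to 4 and 188 on Ay/+ replicate 1. The part of the scan day in the Sod1 differences was not tested beyond the random block and within-batch values above. Over earlier arrays the untreated female groups shared no scan day.

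**Figure D3:**
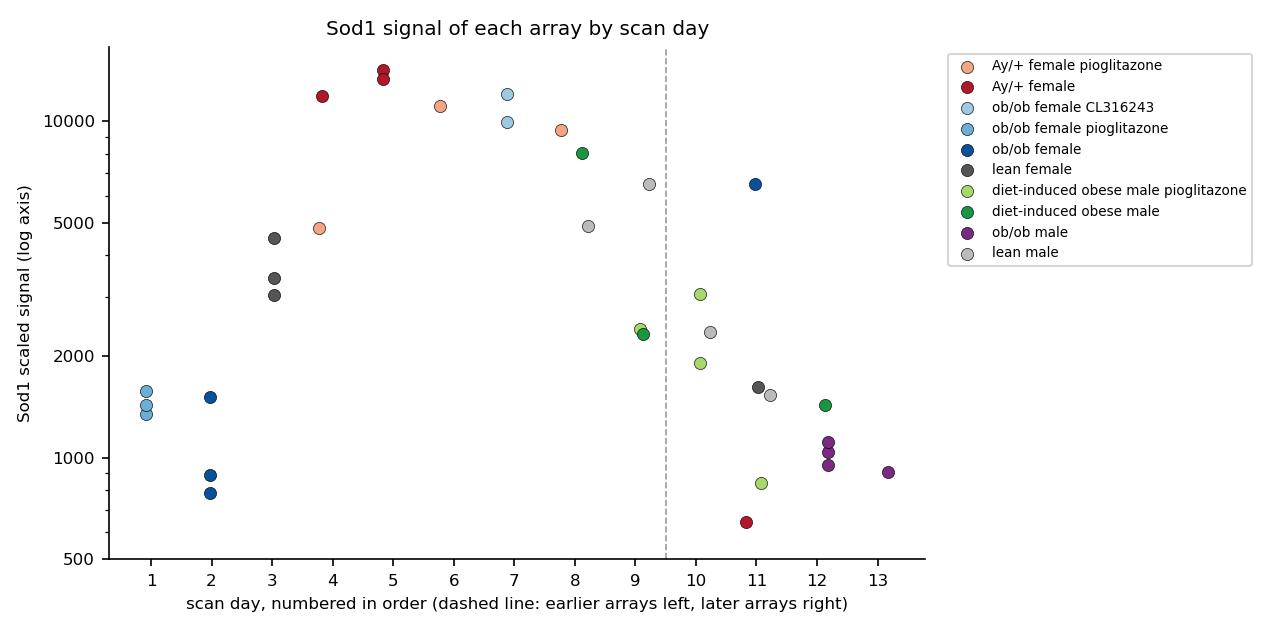
Sod1 scaled signal on a log axis against the scan day, numbered in order, with a point for each array coloured by group; the dashed line divides 22 earlier from 13 later arrays. Arrays of days 5 to 7 are at 9981 or more, arrays of days 1 and 2 at 1582 or less, and Ay/+ female replicate 1, scanned on day 11, is at 646 while the other 3 Ay/+ arrays are at 11908 to 14239.

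The RefSeq promoter window of Sod1 (GRCm38.p6, chr16:90220512-90220811, plus strand, 250 bases before the start of the gene to 50 after) is shown because it holds a match to the antioxidant response element core TGACNNNGC, the element bound by the stress factor Nrf2. The capitals mark that match, which lies on the minus strand with its leftmost base 56 bases before the start.
Sod1: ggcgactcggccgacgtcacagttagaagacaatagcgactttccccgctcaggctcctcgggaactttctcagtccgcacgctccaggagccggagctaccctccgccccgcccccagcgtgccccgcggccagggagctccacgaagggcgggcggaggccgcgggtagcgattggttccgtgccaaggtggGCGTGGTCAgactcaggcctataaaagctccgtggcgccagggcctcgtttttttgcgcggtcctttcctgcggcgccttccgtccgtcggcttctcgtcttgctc
The window also holds 4 matches to the Sp1 box GGGCGG, and 66.7% of its bases are G or C. Of 32851 mouse promoter windows of 300 bases, 12.4% hold the antioxidant response element core and 35.7% the Sp1 box on either strand. A match is a description of these letters and no evidence of binding.

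Cat, which encodes the peroxisomal enzyme catalase, rose with pioglitazone. In Ay/+ females its scaled signals were 1161, 1109 and 1028 with the drug, against 1015, 515, 449.9 and 387 without it. Every treated array was above every untreated one, though replicate 1 of the untreated group came close, and the log2 difference was 0.97 ± 0.26 (limma adjusted p = 0.033). It was 1.25 over earlier arrays (limma adjusted p = 0.00038). Leaving out any 1 array other than Ay/+ replicate 1 took the call away: without Ay/+ replicate 2, 3 or 4 the limma adjusted p was 0.085, 0.096 and 0.13, and without treated replicate 1, 2 or 3 it was 0.092, 0.092 and 0.082.

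In diet-induced obese males Cat was 1889.7, 1142, 1169 and 1080.0 with pioglitazone, against 447, 583 and 635 without it. The groups were well apart, with a log2 difference of 1.19 ± 0.26 (limma adjusted p = 0.0085). The highest array was the one with the Gapdh ratio of 46.9, without which the difference was 1.01 (limma adjusted p = 0.052), and without untreated replicate 1 it was 1.05 (adjusted p = 0.091). It was 1.16 over earlier arrays (limma adjusted p = 0.12) and 1.04 over later ones (adjusted p = 0.26).

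In ob/ob females Cat was 1046, 748 and 1105 with pioglitazone, against 606, 723, 631 and 568 without it. Here too no arrays overlapped, but the log2 difference of 0.58 ± 0.26 did not pass the threshold (limma adjusted p = 0.61), and these groups shared no scan day. The drug effect on Cat was -0.39 ± 0.37 in ob/ob minus Ay/+ females (limma adjusted p = 0.99) and 0.23 ± 0.37 in diet-induced obese males minus Ay/+ females (adjusted p = 0.91), so no difference between the models was shown. With CL316243 Cat was at 478 and 466 in ob/ob females, below all 3 pioglitazone arrays, by -0.98 ± 0.31 (limma adjusted p = 0.049). The 2 drugs again lay on separate scan days, the limma adjusted p was 0.16 with the scan day as a random block, and leaving out pioglitazone replicate 1 or 3 or either CL316243 array took this call away.

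Without drug, Cat was lower in Ay/+ than in lean females, whose signals were 1286, 684, 1161 and 961. The groups overlapped, and the log2 difference was -0.83 ± 0.24 (limma adjusted p = 0.016). It was -1.13 over earlier arrays (limma adjusted p = 0.00027) and 0.08, with no lower level, over the 1 later array of each group (adjusted p = 0.97). With the scan day as a random block it was -0.73 (limma adjusted p = 0.073). The call was lost without lean replicate 1 (limma adjusted p = 0.073) or 3 (0.052), or without Ay/+ replicate 3 (0.060) or 4 (0.082). In ob/ob females the difference from lean was -0.64 ± 0.24 (limma adjusted p = 0.051), and -0.59 (adjusted p = 0.026) without the 4 arrays that stood apart. Males showed 455, 671, 764 and 543 in ob/ob and 447, 583 and 635 in diet-induced obese mice, against 889, 855, 652 and 460.0 in lean mice, with overlap throughout and differences of -0.21 and -0.32 (limma adjusted p = 0.77 and 0.76).

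The dimmer of the 2 Cat probe sets went against the other. It had 562, 441 and 240.5 in treated and 265, 751, 577 and 687 in untreated Ay/+ females, a log2 difference of -0.42 (limma adjusted p = 0.49), and 0.01 (adjusted p = 1.0) in diet-induced obese males. Its log2 signal correlated at -0.39 with that of the brighter Cat probe set and at 0.66 with that of Sod1 over the 35 arrays. Without drug it averaged 570 in Ay/+, 298 in ob/ob and 359 in lean females, so the Ay/+ direction was opposite to that of the brighter set and the ob/ob direction was not. In ob/ob females it ran from 548 to 619 with CL316243 and from 271 to 381 with pioglitazone, again opposite to the brighter set. The Cat results above rest on the probe set with the higher mean.

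The RefSeq promoter window of Cat (GRCm38.p6, chr2:103485104-103485403, minus strand) is shown for its match to AGGTCA, the core recognised by nuclear receptors such as PPAR gamma. The capitals mark that match, which starts 204 bases before the start of the gene on the printed strand.
Cat: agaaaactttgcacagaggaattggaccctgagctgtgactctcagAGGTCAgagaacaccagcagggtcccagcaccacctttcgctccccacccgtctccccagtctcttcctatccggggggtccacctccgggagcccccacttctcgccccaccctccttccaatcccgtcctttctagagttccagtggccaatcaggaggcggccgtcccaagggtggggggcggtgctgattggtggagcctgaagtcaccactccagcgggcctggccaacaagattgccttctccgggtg
AGGTCA occurs on either strand in 16.3% of the 32851 mouse promoter windows, so the match is common, and no binding was measured.

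Other peroxisomal genes moved beside Cat. Of 18 genes listed, 12 were measured, and with pioglitazone 2 of 12 rose in Ay/+ females, 1 in ob/ob females and 4 in diet-induced obese males, with 0 falling in any of the 3. Of all probe sets 2.13%, 0.733% and 0.757% were called higher and 0.91%, 0.33% and 0.66% lower in these models. The median log2 difference of the 12 was 0.48, 0.63 and 0.50 in these models, beside 0.05, -0.05 and -0.08 over all probe sets. Ehhadh, which encodes the bifunctional enzyme of peroxisomal fatty acid oxidation, averaged 97.4 ± 30.2 with the drug and 26.8 ± 6.44 without it in Ay/+ females (SD, n = 3 and 4; log2 difference 1.26, limma adjusted p = 0.0067). It averaged 97.2 ± 22.0 and 27.8 ± 6.34 in ob/ob females (SD, n = 3 and 4; 1.23, limma adjusted p = 0.016) and 199 ± 66.0 and 29.9 ± 9.92 in diet-induced obese males (SD, n = 4 and 3; 2.04, limma adjusted p = 1.6e-05). Ehhadh was thus the listed gene called in all 3 models. Its untreated means were near the pseudocount of 23, so the size of the change is set in part by that floor. Treated and untreated ob/ob females shared no scan day, so drug and scan day cannot be told apart there.

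Abcd3, a transporter of the peroxisomal membrane, rose in Ay/+ females (log2 difference 1.05, limma adjusted p = 0.0029) and in diet-induced obese males (1.39, adjusted p = 0.00015). Hsd17b4, another peroxisomal oxidation enzyme, rose by 1.35 (limma adjusted p = 0.0031) and Pex19, a chaperone for peroxisomal membrane proteins, by 1.23 (adjusted p = 0.019) in the diet-induced obese males. With CL316243 against pioglitazone in ob/ob females 5 of the 12 were lower, Abcd2, Abcd3, Pex19, Pex13 and Ehhadh, and 0 higher, with a median of -0.92 beside 0.07. Of all probe sets 4.69% were called lower and 2.91% higher, and drug and scan day cannot be told apart here. Without drug, Pex11a and Pxmp2 were lower in ob/ob than in lean mice of both sexes, by -1.84 and -1.09 in females (limma adjusted p = 2.7e-06 and 0.00052) and by -1.97 and -2.0 in males (adjusted p = 7.6e-07 and 3.6e-08). Cat itself was called in neither.

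**Figure D4:**
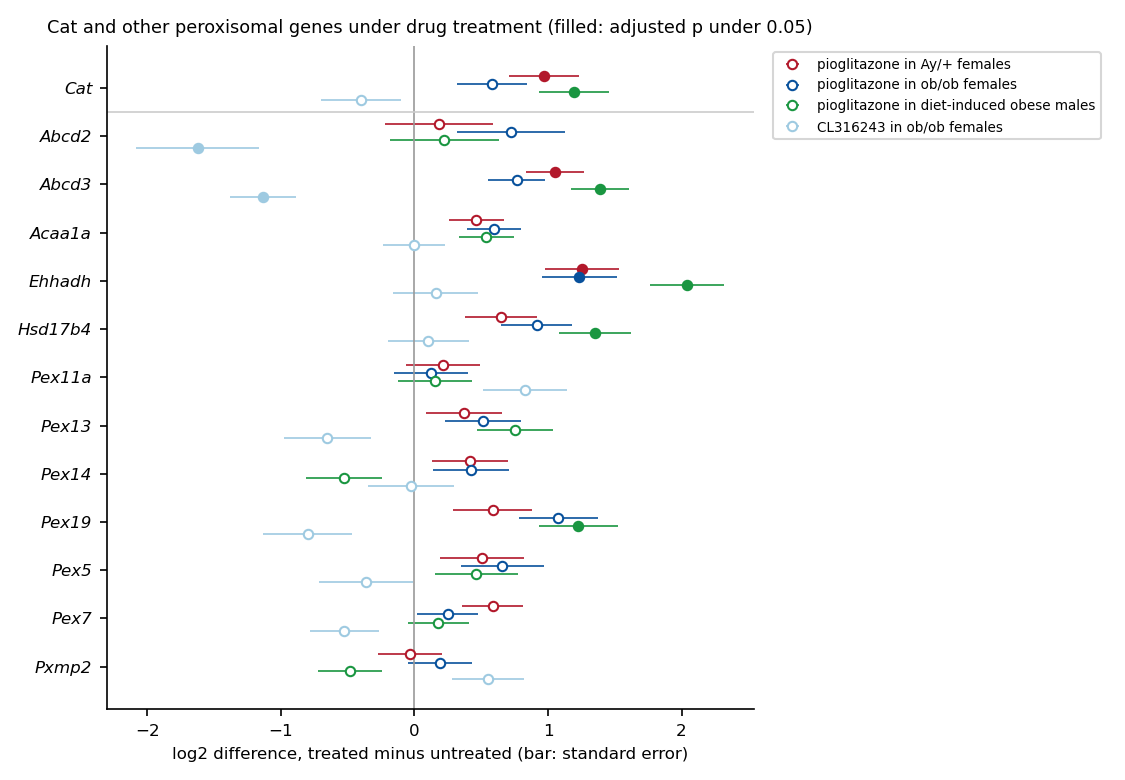
Log2 difference of Cat and of 12 other measured peroxisomal genes, treated minus untreated, for pioglitazone in 3 models and CL316243 in ob/ob females; bars are standard errors and filled points have an adjusted p under 0.05. Ehhadh is filled for pioglitazone in all 3 models, at 1.26, 1.23 and 2.04, and Cat in 2 of 3, at 0.97 and 1.19.

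Gpx1, the intracellular glutathione peroxidase, was lower in both obese female models. Its scaled signals were 387, 378, 489 and 432 in Ay/+ females and 301, 324, 369 and 411 in ob/ob females, against 815, 587, 686 and 608 in lean females. The lean arrays stood above all others, with log2 differences of -0.64 ± 0.19 in Ay/+ (limma adjusted p = 0.017) and -0.89 ± 0.19 in ob/ob females (adjusted p = 0.00089). They were -0.65 and -1.01 over earlier arrays (limma adjusted p = 0.019 and 0.00057), and -0.62 and -0.54 over later ones, 1 array a group (adjusted p = 0.53 and 0.51). The Ay/+ call was lost without lean replicate 1 or Ay/+ replicate 2, with an adjusted p of up to 0.076.

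In males Gpx1 was 333, 375, 447 and 528 in ob/ob and 495, 316 and 430.2 in diet-induced obese mice, against 216, 375, 384 and 336 in lean mice. The groups overlapped, and the log2 differences of 0.35 and 0.32 were not called (limma adjusted p = 0.33 and 0.65). Lean males lay below every lean female, by -1.01 ± 0.19 (limma adjusted p = 0.0007), and by -0.90 and -1.03 over earlier and later arrays. The ob/ob effect was 1.24 ± 0.27 more positive in males than in females (limma adjusted p = 0.0048), and 1.04 (adjusted p = 0.25) over later arrays. With pioglitazone Gpx1 had 431, 338 and 532 in Ay/+ females and 297, 376, 306 and 315 in diet-induced obese males. Treated ob/ob females had 315 and 458 with CL316243 and 267, 308 and 330.4 with pioglitazone. Under the drugs Gpx1 differed by no more than 0.32 in either direction from the untreated mice of the same model, with limma adjusted p-values of 0.67 to 0.999.

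Gpx3, the secreted glutathione peroxidase, was lower in both obese female models. Its scaled signals were 2693, 1832, 3555 and 2142 in Ay/+ females and 3069, 2529, 3412 and 1045 in ob/ob females, against 3512, 5482, 3719.6 and 7966 in lean females. The ob/ob arrays lay below all lean ones and 1 Ay/+ array lay among them. The log2 differences were -0.97 ± 0.32 (limma adjusted p = 0.033) in Ay/+ and -1.08 ± 0.32 (adjusted p = 0.014) in ob/ob females. Over earlier arrays they were -0.78 and -0.48 (limma adjusted p = 0.025 and 0.15), and over later ones -1.56 and -2.90 (adjusted p = 0.19 and 0.012). The ob/ob call was lost with quantile normalization (-0.85, limma adjusted p = 0.067), without lean replicate 4, the highest array, or without ob/ob replicate 4, the lowest, and the Ay/+ call without any 1 of lean replicates 2 or 4 or Ay/+ replicates 2 or 4.

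In males Gpx3 was 4739, 2913, 2283 and 3184 in ob/ob mice and 1533, 2484 and 2658 in diet-induced obese mice, against 4461, 4542, 4192 and 3889 in lean mice. The diet-induced obese arrays were all below the lean ones, with a log2 difference of -0.97 ± 0.35 that was not called (limma adjusted p = 0.20), and -0.97 (adjusted p = 0.048) without the 4 arrays that stood apart. With pioglitazone the diet-induced obese males had 729, 1494, 2254 and 1163, which overlap the untreated ones (-0.72, limma adjusted p = 0.47). Treated Ay/+ females had 3309, 3415 and 3387, a narrow range inside the untreated one. ob/ob females had 2119 and 2134 with CL316243 and 1289, 2372 and 2435 with pioglitazone.

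Gsta3, an alpha-class glutathione transferase, was lower in obese males and in Ay/+ females. In ob/ob males its scaled signals were 134, 111, 97.9 and 86.2, and in diet-induced obese males 232, 171 and 146, against 455, 435, 539 and 465 in lean males. Both obese groups lay far below the lean range, with log2 differences of -1.94 ± 0.26 (limma adjusted p = 1.3e-06) and -1.29 ± 0.28 (adjusted p = 0.0066). For ob/ob males it was -1.86 over later arrays (limma adjusted p = 0.00059), on which all of them were run. The ob/ob and lean males shared no scan day, so genotype and scan day cannot be told apart there. For diet-induced obese males it was -1.23 over earlier (limma adjusted p = 0.12) and -1.47 over later arrays (adjusted p = 0.097), and the call was lost without diet-induced obese replicate 3 (-1.15, adjusted p = 0.059).

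In Ay/+ females Gsta3 was 216, 190.2, 133 and 90.7, and in ob/ob females 156, 283, 174 and 173, against 322, 242, 329.7 and 284 in lean females. Ay/+ arrays lay below all lean arrays, with a log2 difference of -0.86 ± 0.26 (limma adjusted p = 0.018), of -1.03 over earlier (adjusted p = 0.018) and -0.36 over later arrays (adjusted p = 0.75). It passed without 4 of the 8 arrays in turn and failed without lean replicate 1 or 3 or Ay/+ replicate 3 or 4, at up to 0.099. ob/ob replicate 2 lay among the lean arrays, and the ob/ob difference of -0.56 ± 0.26 was not called (limma adjusted p = 0.11). The ob/ob effect was 1.38 lower in males than in females on the log2 scale, or -1.38 ± 0.36 (limma adjusted p = 0.020), a call lost without ob/ob female replicate 2 (-1.21, adjusted p = 0.062). On the later arrays alone it was -1.21 (limma adjusted p = 0.19), and with the scan day as a random block -1.32 (adjusted p = 0.093). Lean males were above lean females by 0.65, which was not called (limma adjusted p = 0.079) but passed without the 4 arrays that stood apart (adjusted p = 0.016).

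With pioglitazone Gsta3 was 58.8, 69.3, 79.5 and 103 in diet-induced obese males, against 232, 171 and 146 without it. The groups did not overlap, and the log2 difference of -1.03 ± 0.28 missed the threshold (limma adjusted p = 0.053). Without the 4 arrays that stood apart it was -0.93 (limma adjusted p = 0.017). It was, in ob/ob females, 154 and 168 with CL316243 (-0.22, limma adjusted p = 0.79) and 118, 113 and 94.8 with pioglitazone, these 3 lying below all 4 untreated arrays (-0.71 ± 0.28, adjusted p = 0.42). In treated Ay/+ females it was 88.6, 72.7 and 256, the last on the array whose label gives no dose (-0.27, limma adjusted p = 0.73).

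The RefSeq promoter window of Gsta3 (GRCm38.p6, chr1:21240335-21240634, plus strand) is shown because Gsta3 was the other member with a match to TGACNNNGC. The capitals mark it, on the plus strand and starting 121 bases before the start of the gene.
Gsta3: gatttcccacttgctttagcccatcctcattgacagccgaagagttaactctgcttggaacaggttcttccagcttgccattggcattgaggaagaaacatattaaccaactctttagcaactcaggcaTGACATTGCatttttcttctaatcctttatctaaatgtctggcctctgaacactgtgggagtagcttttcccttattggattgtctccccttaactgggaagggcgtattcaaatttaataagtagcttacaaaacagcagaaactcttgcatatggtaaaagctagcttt
In all, 7 of the 9 members had a window in the RefSeq table, in 8 windows. The 5 others, Cat, Gpx1, Gpx3, Gstz1 and Sod2, had no match to TGACNNNGC in these windows, and only Cat had AGGTCA. Sod2 had 4 matches to GGGCGG, and Cat, Gpx1, Gpx3 and each of 2 windows of Gstz1 had 1.

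Gsta4, the transferase for 4-hydroxynonenal, was lower in ob/ob mice of both sexes and in Ay/+ females, with arrays far apart within groups. In ob/ob males its scaled signals were 66.7, 8.92, 8.18 and 9.0, and in diet-induced obese males 17.9, 22.0 and 8.23, against 196, 276, 91.6 and 198 in lean males. Both obese groups lay below the lean range, mostly under the pseudocount of 23, so that the size of the change is set by that floor. The log2 differences were -2.30 ± 0.72 in ob/ob (limma adjusted p = 0.034) and -2.39 ± 0.78 in diet-induced obese males (adjusted p = 0.14). Over later arrays, where ob/ob and lean males shared no scan day, the ob/ob difference was -2.64 (limma adjusted p = 0.0023). The diet-induced obese difference passed without the 4 arrays that stood apart (limma adjusted p = 0.006). The ob/ob call was lost with the scan day as a random block (-2.15, limma adjusted p = 0.086), and without any 1 of lean replicates 1, 2 or 4 or of ob/ob replicates 2, 3 or 4.

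In females Gsta4 was 101, 32.7, 85.4 and 29.6 in Ay/+ mice and 19.9, 17.4, 23.6 and 1568 in ob/ob mice, against 1349, 238, 1539 and 159 in lean mice. 3 arrays, 1 of ob/ob and 2 of lean females, thus stood at 1349 to 1568, while all other arrays of the series were at or below 276. The log2 differences were -2.84 ± 0.72 in Ay/+ (limma adjusted p = 0.006) and -2.41 ± 0.72 in ob/ob females (adjusted p = 0.015). On the earlier arrays they were -3.59 and -4.25 (limma adjusted p = 9.2e-06 and 8.9e-07). On the later arrays, 1 a group, they were -0.56 (limma adjusted p = 0.78) and 3.13 (adjusted p = 0.03), the sign of the second being opposite, with ob/ob replicate 4 as the 1 ob/ob array. With the scan day as a random block the ob/ob difference was -1.51 and was not called (limma adjusted p = 0.23). The ob/ob call was also lost without lean replicate 1 or 3 or ob/ob replicate 1, 2 or 3. Lean males differed from lean females by -1.49 (limma adjusted p = 0.15), by -2.37 over earlier arrays (adjusted p = 0.0063) and by 0.49, of the opposite sign, over later ones (adjusted p = 0.7). The difference of -1.49 passed without the 4 arrays that stood apart (limma adjusted p = 0.025).

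The same 3 arrays were high in epithelial genes, a list of 12 written after the Gsta4 values were seen. Its summed scaled signal was 3509 on ob/ob female replicate 4 and 2994 and 3389 on lean female replicates 1 and 3, against 398 to 1260 on the other arrays apart from ob/ob male replicate 1 at 2638. Krt7, a keratin of simple epithelia, reached 1133 in ob/ob and 902 in lean females, while Krt14, a keratin of stratified epithelia, stayed at or below 46.7 on every array. Krt8, Krt18 and Krt19, also keratins of simple epithelia, reached 727, 526 and 502 in ob/ob and 361, 531 and 661 in lean females. Other listed genes were low there: Epcam, an epithelial adhesion gene, was at most 32.5 in ob/ob and 37.3 in lean females, and Muc1, an epithelial mucin, was 69.4 to 231 in Ay/+ females, against 26.9 to 55.6 in lean females. Sprr1a was not on the list but among the 3 genes whose signal followed Gsta4 most closely after group means were removed (r = 0.86), so that its likeness on these arrays follows from that choice. Sprr1a, which encodes a cornified envelope protein, was at 7387 on the ob/ob array and at 4279 and 7035 on the lean ones, against 13.7 to 924 elsewhere. The male array with the highest Gsta4 of its group, ob/ob replicate 1 at 66.7, had a summed signal of 6 epididymis and testis genes of 11479, against 391 to 593 on the other 3. Of those 6 genes 0 had a mean under the pseudocount in ob/ob males. The part of epithelium in the Gsta4 differences was not tested.

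**Figure D5:**
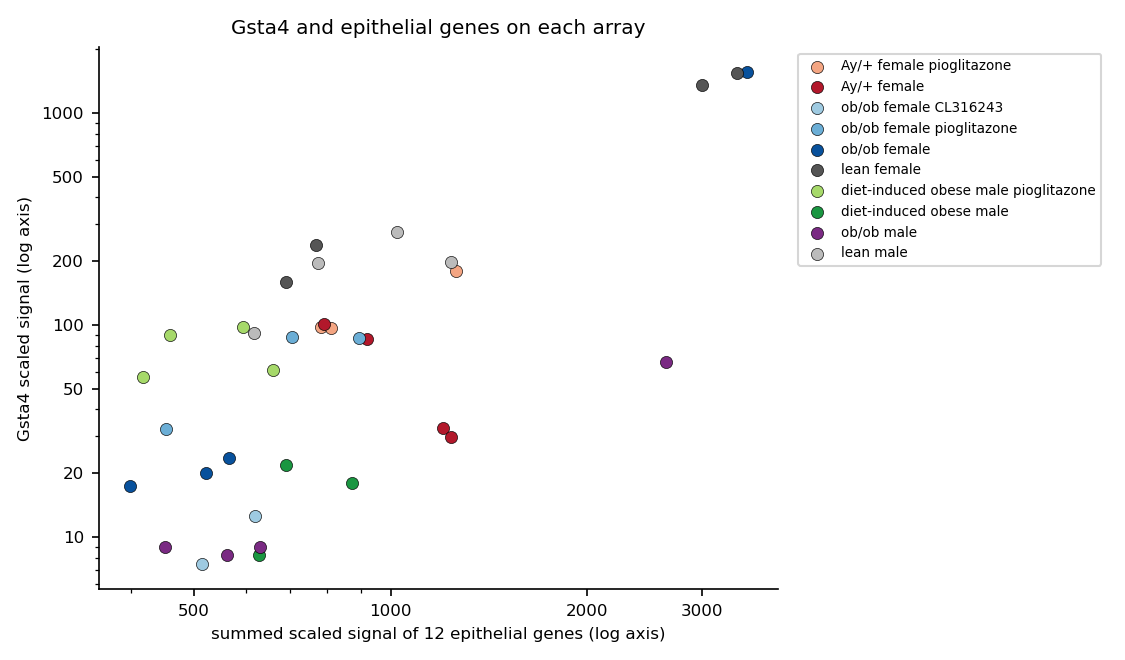
Gsta4 scaled signal against the summed scaled signal of 12 epithelial genes, both on log axes, with a point for each array coloured by group. The 3 arrays with Gsta4 of 1349 to 1568 have epithelial sums of 2994 to 3509, and among the other 32 arrays Gsta4 is at or below 276.

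With pioglitazone Gsta4 was not called in any model. It was 98.3, 96.6 and 181 in treated Ay/+ females (log2 difference 0.86, limma adjusted p = 0.68) and 32.4, 87.0 and 88.1 in treated ob/ob females (-0.28, adjusted p = 0.999). The sign of the ob/ob difference rested on untreated replicate 4 at 1568: the other 3 untreated arrays, at 17.4 to 23.6, were below all treated ones, and over earlier arrays the difference was 1.02 (limma adjusted p = 0.76). In treated diet-induced obese males it was 56.6, 61.2, 97.8 and 89.6, all above the untreated ones (1.34 ± 0.78, limma adjusted p = 0.61). With CL316243 it was 12.5 and 7.42, under the pseudocount.

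Gstz1, the maleylacetoacetate isomerase, was low in ob/ob mice of both sexes and was not called against lean mice in the other obese groups. In ob/ob males its scaled signals were 2164, 2049.8, 2020.1 and 2031, and in diet-induced obese males 7325, 5078 and 3854, against 5719, 6091, 5697 and 5986 in lean males. The ob/ob arrays lay below both other groups, by -1.50 ± 0.19 against lean males (limma adjusted p = 5.6e-07) and -1.33 ± 0.21 against diet-induced obese males (adjusted p = 0.00025). Over later arrays these differences were -1.50 (limma adjusted p = 0.00028) and -0.89 (adjusted p = 0.27), the second with 1 diet-induced obese array. Diet-induced obese males differed from lean males by -0.16 (limma adjusted p = 0.89), with overlap. Lean and ob/ob males shared no scan day, so genotype and scan day cannot be told apart between them.

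In females Gstz1 was 3627, 2978, 3401 and 2651 in ob/ob mice and 6228, 5707, 7035 and 5504 in Ay/+ mice, against 5489, 6483, 4301 and 6701 in lean mice. ob/ob arrays again lay below all others, by -0.84 ± 0.19 against lean (limma adjusted p = 0.0016) and -0.95 ± 0.19 against Ay/+ females (adjusted p = 0.00084). The difference from lean was -0.68 over earlier (limma adjusted p = 0.016) and -1.33 over later arrays (adjusted p = 0.023), and that from Ay/+ was -0.86 (adjusted p = 0.0031) and -1.23 (adjusted p = 0.048). No left-out array ended either call. With only the groups compared in the fit, the limma adjusted p was 0.051 against lean and 0.069 against Ay/+ females, and with quantile normalization the difference from Ay/+ females was -0.55 (adjusted p = 0.057). The ob/ob effect in males minus that in females was -0.65 ± 0.27 (limma adjusted p = 0.14), and it was called without the 4 arrays that stood apart, at -0.73 (adjusted p = 0.039), and with quantile normalization, at -1.23 (adjusted p = 0.010). Among the 15 adipocyte markers listed, 11 were measured: in ob/ob males 5 of 11 were lower and 0 higher than in lean males, and in ob/ob females 3 were higher and 2 lower than in lean females. Of all probe sets 4.96% were called lower and 5.62% higher in ob/ob males, and 14% lower and 10.3% higher in ob/ob females.

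Gstz1 was not called under either drug. In ob/ob females it was 5090.4 and 4817 with CL316243, above all 4 untreated arrays (log2 difference 0.65 ± 0.23, limma adjusted p = 0.11), and 2506, 3657 and 4210.1 with pioglitazone (0.10, adjusted p = 0.999). Treated Ay/+ females had 5910.4, 6132 and 4722 (-0.13, limma adjusted p = 0.84), and treated diet-induced obese males 3953, 3750.3, 3905 and 4249.9 (-0.40, adjusted p = 0.52).

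Some of the other glutathione transferases were lower in ob/ob mice. Of 19 listed 15 were measured. In Ay/+ females 2 of 15 were called higher and 2 lower, where 6.26% of all probe sets were called higher and 11.5% lower. In ob/ob females 1 of 15 was called higher and 5 lower, and in ob/ob males 0 higher and 4 lower, where 10.3% and 5.62% of probe sets were called higher and 14% and 4.96% lower. The medians were -0.22 and -0.42 in these comparisons, beside -0.18 and 0.06 over all probe sets. Gstk1, a mitochondrial and peroxisomal transferase, averaged 389 ± 75.3 in ob/ob and 1154 ± 389 in lean females (SD, n = 4 each; log2 difference -1.46, limma adjusted p = 8.3e-06), and 397 ± 84.5 in ob/ob and 795 ± 64.0 in lean males (-0.98, adjusted p = 0.0018). Gstt1, a theta-class transferase, fell in ob/ob males (-1.39, limma adjusted p = 1.1e-05) and rose in ob/ob females with CL316243 (0.91, adjusted p = 0.041). Mgst2, a microsomal transferase, was lower than in lean females in Ay/+ females (-1.80, limma adjusted p = 2.0e-05), in ob/ob females (-1.20, adjusted p = 0.0016) and in lean males (-1.94, adjusted p = 1.0e-05). Under pioglitazone 1 of 15 rose in Ay/+ females, Mgst3 (1.69, limma adjusted p = 0.0015), and 1 fell, Gstm3 (-1.34, adjusted p = 0.011).

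Some genes of glutathione synthesis and reduction were higher in ob/ob mice. Of 15 listed 9 were measured, and 4 of 9 were higher and 0 lower in ob/ob than in lean females, and 2 higher and 0 lower in ob/ob than in lean males, where 10.3% and 5.62% of probe sets were called higher. Gclm, the modifier subunit of the rate-limiting enzyme of glutathione synthesis, averaged 510.4 ± 138 in ob/ob and 258 ± 41.0 in lean females (SD, n = 4 each; log2 difference 0.90, limma adjusted p = 0.014), and 478 ± 39.7 in ob/ob and 196 ± 42.1 in lean males (1.21, adjusted p = 0.0019). Slc3a2, the heavy chain shared by amino acid transporters such as the cystine carrier, was higher in Ay/+ females (1.04, limma adjusted p = 0.0038), in ob/ob females (1.45, adjusted p = 7.0e-05) and in lean males (1.29, adjusted p = 0.0009) than in lean females. Of the 9, 2 were higher and 1 lower in Ay/+ than in lean females, where 6.26% of probe sets were called higher and 11.5% lower.

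Among peroxiredoxins, thioredoxins and other glutathione peroxidases, 14 of 19 were measured, with 4 higher and 1 lower in Ay/+ females, 3 higher and 2 lower in ob/ob females and 3 higher and 0 lower in ob/ob males. Of all probe sets 6.26%, 10.3% and 5.62% were called higher and 11.5%, 14% and 4.96% lower in these comparisons. Txnrd1, the cytosolic thioredoxin reductase, rose by 1.04 in ob/ob females (limma adjusted p = 0.0048) and by 1.04 in ob/ob males (adjusted p = 0.0071). Prdx2, a cytosolic peroxiredoxin, fell by 0.69 in Ay/+ (limma adjusted p = 0.0035) and by 0.60 in ob/ob females (adjusted p = 0.0075). Gpx4, which reduces lipid peroxides, fell by 0.70 in ob/ob females (limma adjusted p = 0.0035). Txnip, a binder of thioredoxin, rose by 0.67 in Ay/+ and by 0.77 in ob/ob females (limma adjusted p = 0.0051 and 0.0013).

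Hmox1, the heme oxygenase that is a classical target of Nrf2, rose in every untreated obese group. It averaged 3606 ± 1570.0 in ob/ob females and 1137 ± 266 in Ay/+ females, against 532 ± 31.7 in lean females (SD, n = 4 each). The log2 differences were 2.57 (limma adjusted p = 2.7e-07) and 1.03 (adjusted p = 0.020). In males it averaged 5164 ± 1173 in ob/ob (SD, n = 4) and 1949 ± 759 in diet-induced obese mice (n = 3), against 762 ± 245 in lean mice (n = 4), with differences of 2.75 (limma adjusted p = 6.1e-08) and 1.29 (adjusted p = 0.034). The part of macrophages in the Hmox1 differences was not tested. Of the 13 measured genes of its list of 16, which holds Nrf2 itself and metal-binding proteins, 4 were higher and 2 lower in Ay/+ females, 4 higher and 0 lower in ob/ob females, and 1 higher and 0 lower in each group of obese males. Of all probe sets, 6.26% and 10.3% were called higher in Ay/+ and ob/ob females, and 5.62% and 1.22% in ob/ob and diet-induced obese males. Nfe2l2, the gene of Nrf2, was lower in Ay/+ females (-0.89, limma adjusted p = 0.003), and Ccs, the copper chaperone for the Sod1 enzyme, was higher (1.47, adjusted p = 0.00067). Mt1 and Mt2, the metallothioneins, were higher with CL316243 than with pioglitazone in ob/ob females, by 1.31 and 1.53 (limma adjusted p = 0.026 and 0.0036), with the drugs on separate scan days.

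Some genes of enzymes that make superoxide or peroxide rose in ob/ob mice. Of 12 listed 10 were measured, with 5 higher and 0 lower in ob/ob females, 4 higher and 1 lower in ob/ob males, 1 higher and 0 lower in Ay/+ females, and 1 higher and 0 lower in diet-induced obese males. Of all probe sets, 10.3%, 5.62%, 6.26% and 1.22% were called higher in these comparisons. Cyba, the small membrane subunit of the phagocyte oxidase, averaged 3016 ± 828 in ob/ob and 2014 ± 153 in Ay/+ females, against 618 ± 214 in lean females (SD, n = 4 each; log2 differences 2.27 and 1.74, limma adjusted p = 9.6e-09 and 3.5e-06). In diet-induced obese males Cyba rose by 1.73 (limma adjusted p = 4.0e-05). Cybb, the catalytic subunit, rose by 2.27 in ob/ob females and by 2.43 in ob/ob males (limma adjusted p = 0.00015 and 7.3e-05). Cybb is also on the macrophage list, of which 13 of 17 were higher in ob/ob females, 14 of 17 in ob/ob males, 9 of 17 in Ay/+ females and 8 of 17 in diet-induced obese males, with 0 lower in each. The part of macrophages in these differences, and in those of the 9 enzymes, was not tested.

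Of 13 other selenoproteins and selenium factors 10 were measured. Sephs2, which makes the selenium donor for selenoproteins, was lower than in lean females in Ay/+ females (-1.58, limma adjusted p = 5.7e-06), in ob/ob females (-0.90, adjusted p = 0.0029) and in lean males (-0.69, adjusted p = 0.030). Gpx1, itself a selenoprotein, was called lower in the same 3 comparisons, all of which use the same 4 lean female arrays. In all, 2 of 10 were higher and 2 lower in Ay/+ females, 1 higher and 2 lower in ob/ob females, and 0 higher and 2 lower in ob/ob males, where 6.26%, 10.3% and 5.62% of probe sets were called higher and 11.5%, 14% and 4.96% lower. In ob/ob males Selenbp1, a selenium-binding protein, fell by 1.78 (limma adjusted p = 9.0e-06).

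The 9 enzymes did not rise and fall as a single block across the 35 arrays. Among their 36 pairs, Pearson r of log2 signal ran from -0.61 for Sod2 with Sod3 to 0.61 for Sod2 with Cat. These arrays share groups and scan days, so r is a description. The genes most like a member over all 35 arrays were Hspe1 (r = 0.84) and Romo1 (0.83) for Sod2, Hsdl2 (0.83) and Dlst (0.82) for Cat, Pkig (0.91) and H2-Q4 (0.88) for Sod3, and Apcdd1 (0.92) and Rbp4 (0.91) for Gstz1. For Gsta3 they were Cachd1 (0.81) and Thbd (0.77), for Gsta4 Fmo5 (0.85) and Igfbp2 (0.80), for Gpx1 Wnk2 (0.79) and Psmb5 (0.79), for Gpx3 Tkt (0.70) and Pon3 (0.70), and for Sod1 Nipsnap2 (0.94) and Slc39a1 (0.93).

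Across the 10 groups the highest group mean was 11 times the lowest for Sod1, 8.01 times for Sod3, 6.09 times for Gsta3, 3.67 times for Gpx3, 2.96 times for Gstz1, 2.80 times for Cat, 2.23 times for Gpx1 and 1.88 times for Sod2. For Gsta4 no such ratio is given, since its lowest group mean lay under the pseudocount and its highest, in lean females, rested on 2 of 4 arrays. With groups ranked by mean, neighbours that did not overlap were few. Lean males were highest for Gsta3 and clear of lean females below them, and lean females were highest for Gpx1 and clear of treated Ay/+ females. Lean females were lowest for Sod3, clear of treated diet-induced obese males above them. ob/ob males were lowest for Gstz1, clear of ob/ob females above them, and lowest for Sod1, clear of pioglitazone-treated ob/ob females. For Gstz1, CL316243-treated ob/ob females were clear of treated diet-induced obese males below them, for Sod2 diet-induced obese males were clear of lean males, and for Gpx3 lean males were clear of treated Ay/+ females. For Cat and Gsta4 every group overlapped the next in the order.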

How the data were processed

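The 35 arrays were deposited as intensity values, 1 MAS5 signal for each of 12488 probe sets, made by the authors with MAS5 per the labels and the submitters' processing notes; probe-level files were not used here. Deposited trimmed means ran from 250.2 to 1680 between arrays, so every array was rescaled to a 2% trimmed mean of 250. After 66 control probe sets were left out, log2(signal + 23) was fitted, 23 being the 25th percentile of all scaled signals. The fit used limma 3.58.1 in R 4.3.3 (lmFit and eBayes with a mean-variance trend) on 10 group means, with Benjamini-Hochberg adjustment over 12422 probe sets and calls under 0.05. The number of arrays limits the precision.

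Of these probe sets 10833 carried 1 gene symbol, 396 several and 1193 none in the platform annotation. Each gene was read from its probe set with the highest mean. All probe sets of the 9 members were named, other genes came from fixed lists, and the 3 probe sets most correlated with each member were its most similar genes. Members and lists were chosen with earlier results of these data known. The script was tested on simulated data. Other settings tried were the brighter probe sets, only the groups compared, a pseudocount of 1, quantile normalization, batch, scan day and replicate blocks, each batch alone, and leaving arrays out. These settings were kept for the 9 members only, so results for other genes rest on the main fit alone. Groups followed the labels. Replicate numbers did not pair samples. Tables were handled with Python 3.11.15, numpy 2.4.6 and pandas 2.3.3.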

Additional observations from a re-analysis of the deposited data

Results flagged for a closer look

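Each member was compared with its own group in the 6 groups of 4 arrays, 54 sets in all, and in 6 of them 1 array stood far from the others. The rule is meant to flag about 1 in 20 sets of independent values by chance. The sets here share arrays, so the count was not tested against that rate. Gsta4 was at 1568 on ob/ob female replicate 4, against 17.4 to 23.6 on the other 3, and the same array had 6529 for Sod1, against 785 to 1511. Gsta4 was at 66.7 on ob/ob male replicate 1, against 8.18 to 9.0. Gsta3 was at 283 on ob/ob female replicate 2, against 156 to 174. Sod2 was at 539 on ob/ob male replicate 3, against 489.8 to 496. Cat was at 1889.7 on replicate 1 of the pioglitazone-treated diet-induced obese males, against 1080.0 to 1169.

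The ob/ob effect differed between the sexes for 4 of the 9 enzymes by limma's test of the difference, males minus females on the log2 scale. It was -1.95 for Sod3 (adjusted p = 0.0076), -1.38 for Gsta3 (adjusted p = 0.020), 1.24 for Gpx1 (adjusted p = 0.0048) and 0.79 for Sod2 (adjusted p = 0.036). All ob/ob males and 1 of 4 ob/ob females were on later arrays, so sex and batch overlap in this comparison.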

How the results depend on the processing

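Fits with fewer arrays have less power for every probe set, so a lower count below need not be particular to these enzymes. The number of the 9 enzymes called depended on which arrays shared the fit. For Ay/+ against lean females it was 7 on all arrays, 2 with the compared groups only, 1 on later arrays and 4 to 8 with 1 array left out. For ob/ob against lean females it was 6, and 3 with the compared groups only. Gsta4 was among the calls lost with the compared groups only and with the scan day as a random block. Over later arrays, 1 a group, Gsta4 was instead higher in ob/ob than in lean females, by 3.13. Over later arrays ob/ob females, again 1 array a group, differed from Ay/+ females by 3.29 for Sod1, 3.68 for Gsta4 and -1.23 for Gstz1. For ob/ob against Ay/+ females the number called was 2, against 0 with quantile normalization, 0 with the compared groups only, 1 with the scan day as a random block and 1 to 3 with 1 array left out. For diet-induced obese against lean males it was 1, against 2 with the compared groups only, 0 on earlier arrays, 0 on later arrays, 3 without the 4 arrays that stood apart and 0 to 1 with 1 array left out. For ob/ob against diet-induced obese males it was 1, against 0 on later arrays and 2 without those 4 arrays. For lean males against lean females it was 3, against 5 on earlier arrays, 0 on later arrays and 5 without those 4 arrays. For the ob/ob effect in males minus females it was 4, against 1 on later arrays that was none of the 4 (Gsta4), 5 without those 4 arrays, Gstz1 being added, 2 with the scan day as a random block and 2 to 4 with 1 array left out.

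Among the drugs, pioglitazone in Ay/+ females gave 2 calls, against 3 on earlier arrays, where Sod3 was lower, 0 with the compared groups only, 1 with the scan day as a random block and 0 to 2 with 1 array left out. Pioglitazone in diet-induced obese males gave 2, against 0 with the compared groups only, 1 with the batch block, 0 on earlier arrays, 1 on later arrays, 1 with the scan day block and 0 to 2 with 1 array left out. CL316243 in ob/ob females gave 0 calls by limma, with 2 at an unadjusted p under 0.05, against 1 over the brighter probe sets, 1 on earlier arrays, 1 without those 4 arrays and 0 to 1 with 1 array left out. CL316243 against pioglitazone gave 2, against 0 with quantile normalization, 1 with a pseudocount of 1, 0 with the scan day block and 0 to 1 with 1 array left out.

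On later arrays alone 17 of 81 log2 differences turned sign, and 4 of them were called there or on all arrays: Cat in Ay/+ against lean females at 0.077, Gsta4 in ob/ob against lean females at 3.13, Sod1 in ob/ob against Ay/+ females at 3.29 and Gsta4 in the ob/ob effect of males minus females at -5.76. Each rests on 1 array a female group, and the cause was not tested. With the replicate number as a replicate block, pioglitazone in Ay/+ females gave 0 calls and CL316243 in ob/ob females 1, and the count for the other comparisons stayed within 1.5 times; same-numbered arrays did not deviate together, with 6 of 35 arrays correlating best with their own number. Gsta4 in ob/ob and diet-induced obese males and with CL316243 lay mostly under the pseudocount, so its signal limits what the fold change can show.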
